A study of Mus musculus with 3 samples.

Results

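Dense clusters bound by both HNF4A and FOXA2 are short stretches of the mouse genome in which peaks of these 2 factors crowd together. They were chosen by peak position alone, from chromatin immunoprecipitation with sequencing (ChIP-seq) on embryonic liver. HNF4A and FOXA2 peaks with any base in common became 1 site, sites with gaps of 12500 bp or less were joined, and clusters of 5 or more sites with at least 1 peak of each factor were kept. This gave 169 clusters with 1004 sites, 5.70% of the 17617 sites in all. They held 770 of 11646 HNF4A peaks and 441 of 8828 FOXA2 peaks. The density of peaks, the presence of both factors and the upper limit on gaps are thus set by the rule and are not findings. The authors' score of each peak was not used to choose the clusters.

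The 3 libraries were an HNF4A ChIP, a FOXA2 ChIP and a control made from chromatin before immunoprecipitation, called input. All came from wildtype C57BL/6 livers at embryonic day 14.5, which were pooled before hepatoblasts were enriched by magnetic sorting for the surface protein DLK1. No expression was measured, so the identity of the sorted cells could not be checked against marker genes. With 1 library per antibody no difference below has a replicate check and none was tested. Intervals are 95% Wilson intervals, which cover counting error only and are too narrow where neighbouring peaks share a cluster. The lists end at scores of 16 for HNF4A and 11 for FOXA2, and the depth of the libraries is unknown, so a site with a peak of 1 factor is not evidence that the other was absent.

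HNF4A is a nuclear receptor that binds DNA as a dimer and maintains the gene programme of hepatocytes. FOXA2 belongs to the forkhead family and can engage DNA wrapped in nucleosomes, and FOXA factors are needed for the liver to be specified. Genes with very high output in a cell type are often flanked by several enhancers, and liver factors frequently occupy such elements together. The gene annotation at hand is on another genome build than the files (mm9), so the clusters are named by position and no gene is assigned to them.

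Most clusters were small and compact. Of the 169 clusters, 89 held 5 sites, 48 held 6, 15 held 7, 8 held 8, and the remaining 9 held 9 to 18. Their length, measured from the first start to the last end, had a median of 24.7 kb with an interquartile range of 18.8 to 30.4 kb. The extremes were 8.09 and 80.6 kb. Sites covered 10.7% of this length. The 835 gaps between neighbouring sites had a median of 3859 bp (interquartile range 1652.5 to 7429.5 bp). Gaps of at most 1 kb made up 16.2% of them, and 19 gaps lay between 12 kb and the limit. In clusters of 2 to 4 sites with both factors the median gap was 4194 bp and 17.5% of gaps were at most 1 kb.

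On either side of the threshold of 5 sites, the make-up of clusters was as follows. The 89 clusters of 5 sites had a median length of 21.0 kb, against 16.5 kb for the 220 clusters of 4 sites with both factors, and their median gaps were 4017.5 and 4202 bp. HNF4A peaks made up 65.4% of peaks in clusters of 5 sites and 59.1% in those of 4 sites. Shared sites were 19.6% in clusters of 5 sites and 23.3% in clusters of 4 sites. Both values leave out clusters with 1 factor, which can hold no shared site. Over all clusters, whatever factor they hold, the part was 18.9% at 4 sites and 18.6% at 5 or more. Beyond their own ends, 79 of the 169 clusters had a further site within 25 kb, and 3 had one within 13 kb. Another cluster of the set lay within 1 Mb for 56 of them. The closest pair was on chromosome 3, where 82806967 to 82830262 and 82842824 to 82857901 were separated by 12.6 kb and so narrowly remained apart.

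No site of the clusters lay closer than 10.6 kb to a region of the input list, by the rule, and 11 of 1004 lay within 50 kb. The clusters were spread over all 19 autosomes, but unevenly. Chromosome 5 carried 15 of them, with 9.27% of its sites (7.72 to 11.1%). Chromosome 2 had 14, with 6.00% of its sites, and chromosome 9 had 13, with 8.12%. Chromosome 6 had the fewest, with 3 clusters and 1.44% of its 1040 sites (0.876 to 2.37%), and chromosome 4 had 6 with 2.78% (1.97 to 3.89%). No cluster lay on the X chromosome, 0 of 228 sites, for which a count of 3 would be 1.32% and the Wilson upper bound is 1.66%. Both treat sites as independent, although member sites come in groups of 5 or more.

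HNF4A peaks outnumbered FOXA2 peaks in most clusters. HNF4A made up 63.6% of the 1211 peaks in the clusters (60.8 to 66.2%), against 56.9% of the 20474 peaks of the series and 53.6% of the peaks in lone sites. In clusters of 2 to 4 sites it was 55.3% with both factors and 71.7% with 1 factor. The 18 clusters of 5 or more sites with 1 factor had 64.9% (55.6 to 73.1%). Over all clusters, whatever factor they hold, it was 58.8% at 2 sites, 61.7% at 3, 59.7% at 4 and 63.7% at 5 or more. Within the 169 clusters the HNF4A part per cluster had a median of 66.7% and ranged from 14.3% to 87.5%. There were 127 clusters with more HNF4A than FOXA2 peaks, 19 with equal numbers and 23 with more FOXA2 peaks. A single FOXA2 peak was found in 34 clusters and a single HNF4A peak in 3. The HNF4A part was 65.4% in clusters of 5 sites, 59.3% in those of 6, 64.5% in those of 7 or 8 and 66.7% in those of 9 or more. It therefore did not change in one direction with size within the set, and the intervals of these 4 values overlapped.

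**Figure D1:**
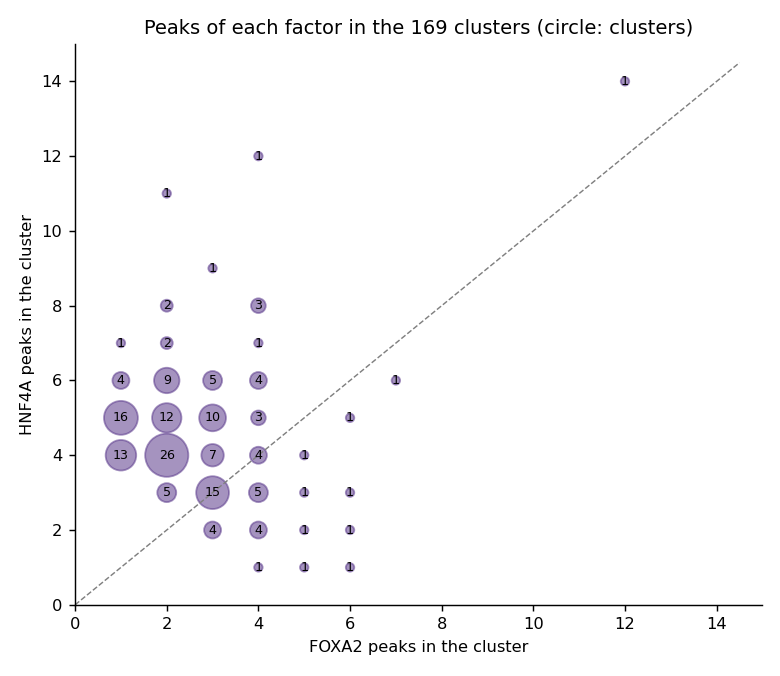
Number of HNF4A peaks (vertical axis) against FOXA2 peaks (horizontal axis) in each of the 169 clusters. The area of a circle and the number in it give the clusters with that combination, and the dashed line marks equal numbers. The circles lie mostly above the line, with 26 clusters at 4 HNF4A and 2 FOXA2 peaks, and the cluster with 14 and 12 peaks stands apart.

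The clusters with the most one-sided peaks held 5 to 7 sites. The highest HNF4A part was on chromosome 3 at 151812853 to 151844071, where 7 HNF4A peaks with scores of 20 to 36 met 1 FOXA2 peak of score 15, in a shared site. Next were 4 clusters with 6 HNF4A peaks and 1 FOXA2 peak each. In those on chromosome 11 at 53594963 to 53610291 and chromosome 5 at 122136510 to 122165421 the FOXA2 peak stood alone, and in those on chromosome 1 at 186650908 to 186676655 and chromosome 9 at 110237432 to 110265263 it was shared. At the other end, chromosome 9 at 64862018 to 64899156 held 6 FOXA2 peaks with scores of 11 to 29 and 1 HNF4A peak at 16, as low as any kept for this factor. That HNF4A peak lay in the last site, together with the highest FOXA2 peak. Chromosome 16 at 93716003 to 93743403 held 5 FOXA2 peaks and 1 HNF4A peak of score 33, and chromosome 12 at 81317269 to 81334278 held 4 and 1, both without a shared site.

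Shared sites, in which peaks of both factors overlap, were a minority of the cluster sites. Of the 1004 sites, 563 (56.1%) had HNF4A only, 234 (23.3%) had FOXA2 only and 207 (20.6%, 18.2 to 23.2%) had both. Over all sites of the series 16.1% were shared. Because the rule asks for both factors, this part is best read beside all clusters of a given size, whatever factor they hold. There it was 14.2% of lone sites, 17.6% in clusters of 2, 18.4% in clusters of 3, 18.9% in clusters of 4 and 18.6% in clusters of 5 or more (16.4 to 21.0%). The intervals of lone sites and of clusters of 2 did not overlap, and those of clusters of 2 and upward did. FOXA2-only sites took 38.8% of lone sites and 24.5% of sites in clusters of 5 or more, and HNF4A-only sites 47.0% and 57.0%.

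**Figure D2:**
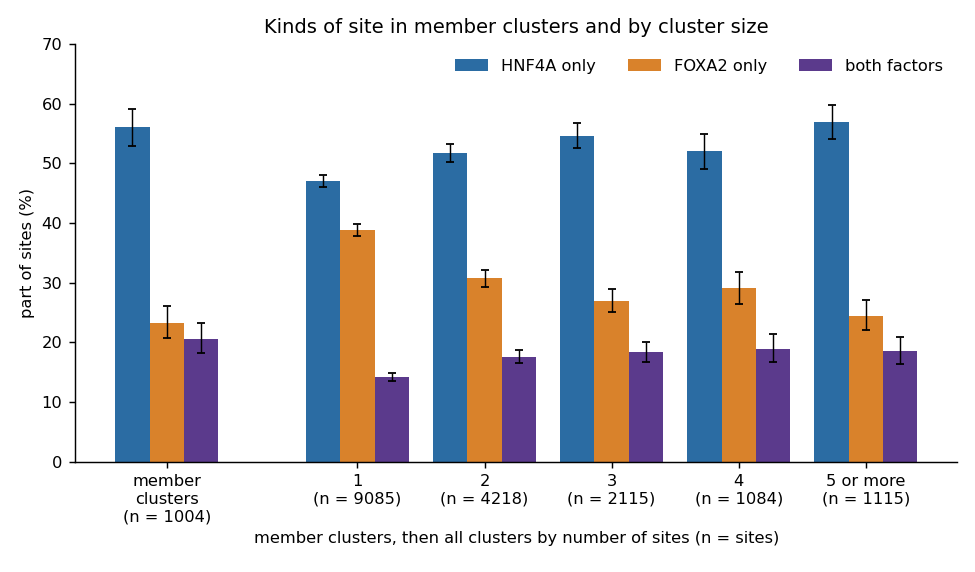
Part of sites with HNF4A only, FOXA2 only or both factors (percent, with 95% Wilson intervals) in the member clusters at the left and then in all clusters by their number of sites. The FOXA2-only part is lower in clusters of 5 or more (24.5%) than among lone sites (38.8%), while the part with both factors changes little from 2 sites upward.

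The shared part read differently from the side of each factor. Of the FOXA2 peaks in the clusters 46.9% overlapped HNF4A, against 47.1% of FOXA2 sites in clusters of 2 to 4 sites with both factors, 32.1% in the series and 26.7% in lone sites. Of the HNF4A peaks in the clusters 26.9% overlapped FOXA2, against 38.1% in clusters of 2 to 4 sites with both factors, 24.3% in the series and 23.1% in lone sites. Where both factors were asked for, the dense clusters thus had about the same value as smaller ones for FOXA2 and a lower value for HNF4A. A single shared site meets that condition, so it raises the shared part of small clusters by the rule. Over all clusters, whatever factor they hold, HNF4A values were 25.4%, 25.2%, 26.7% and 24.6% at 2, 3, 4 and 5 or more sites. The FOXA2 values were 36.4%, 40.6%, 39.4% and 43.1%. In the 127 clusters with more HNF4A peaks, 58.8% of 277 FOXA2 peaks were shared (53.0 to 64.5%). In the 23 clusters with more FOXA2 peaks the part was 24.3% of 103 (17.0 to 33.4%), while 42.4% of their 59 HNF4A peaks were shared. The factor with fewer peaks is bound to have the larger shared part within a cluster, since each shared site held exactly 1 peak of each.

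Shared sites made up 20.6% of the cluster sites and 16.1% of all sites, and their number per cluster was as follows. None was found in 42 clusters, 1 in 74, 2 in 35, and 3 or more in 18. Whether these counts depart from what the shared part gives was not tested. All 3 kinds of site occurred in 83 clusters. In 41 clusters every FOXA2 peak lay in a shared site, and in 3 clusters every HNF4A peak did. These counts do not compare the factors, since clusters held a median of 2 FOXA2 and 4 HNF4A peaks. In the 42 clusters without a shared site the closest HNF4A and FOXA2 sites were a median of 2494 bp apart, from 86 to 9745 bp. In 9 of them this distance was at most 1 kb. Peak centres in the 207 shared sites of the clusters lay a median of 62.5 bp apart (29.8 to 112 bp), against 58 bp in the other 2624 shared sites of the series, and 71.0% and 73.5% of sites had centres within 100 bp. Sites with a single factor were mostly well separated from the other factor. An HNF4A-only site was a median of 5742 bp from the nearest FOXA2 peak of its cluster, and a FOXA2-only site a median of 4406.5 bp from the nearest HNF4A peak.

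The order of sites along the chromosome was close to what the make-up of each cluster gives. If the sites of each cluster stood in any order, 41.5% of the 835 neighbouring pairs would be of the same kind, by formula from the number of sites of each kind. The observed part was 42.9% (39.6 to 46.3%). HNF4A-only sites neighboured each other in 262 pairs, against 258 from the composition, and shared sites did so in 36 pairs, against 35.4. FOXA2-only sites neighboured each other in 60 pairs, against 52.8, and HNF4A-only sites neighboured FOXA2-only sites in 204 pairs, against 214. All 6 kinds of pair lay within counting error of these numbers.

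**Figure D3:**
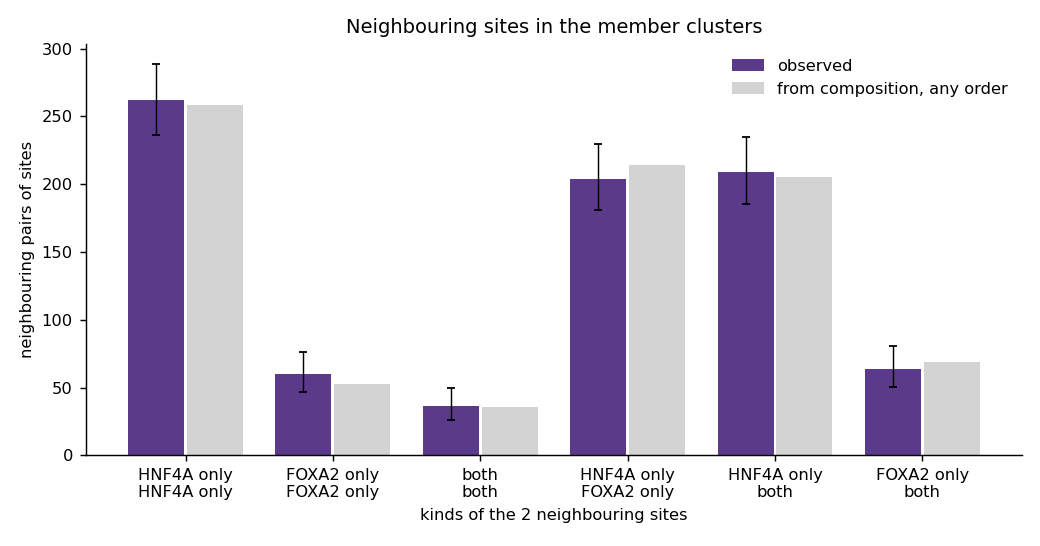
Neighbouring pairs of sites in the 169 clusters by the kinds of both sites (bars with 95% Wilson intervals), beside the number that the composition of each cluster gives for any order. Observed and composition values are close for each kind of pair, such as 262 and 258 for neighbouring HNF4A-only sites.

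Ends and insides of the clusters were close in make-up. The first and last sites were shared in 20.4% of 338 cases, and inner sites in 20.7% of 666. HNF4A-only sites made up 55.9% of ends and 56.2% of inner sites, and FOXA2-only sites 23.7% and 23.1%. The longest uninterrupted run was 6 sites for HNF4A only, 6 for FOXA2 only and 4 for shared sites. In 26 of the 66 clusters with 2 or more FOXA2-only sites these stood next to each other in 1 block, and in 15 of the 53 clusters with 2 or more shared sites the shared sites did. HNF4A-only sites did so in 48 of the 160 clusters with 2 or more of them. No value from the composition was computed for these block counts, so they show no departure from any order. Neighbouring FOXA2-only sites had a median gap of 3020.5 bp and neighbouring shared sites one of 5251 bp, with wide and overlapping interquartile ranges (1031 to 6564 bp and 2188 to 9452 bp).

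Scores, which the rule did not use, were modestly higher in the clusters than in all peaks outside them. The median HNF4A score was 25 inside the clusters and 23 outside them, with interquartile ranges of 19 to 38 and 18 to 33. The median FOXA2 score was 16 inside and 15 outside, with ranges of 12 to 23 and 12 to 22. A peak was called high-scoring when it reached the 90th percentile of its list, a score of 47 for HNF4A and 34 for FOXA2. Ties put 10.6% of all HNF4A peaks and 10.7% of all FOXA2 peaks at or above these scores. In the clusters 127 of 770 HNF4A peaks were high-scoring, 16.5% (14.0 to 19.3%), against 10.2% outside. For FOXA2 this was 68 of 441 peaks, 15.4% (12.3 to 19.1%), against 10.5% outside. In clusters of 2 to 4 sites with both factors, 13.9% of HNF4A peaks (12.8 to 15.1%) and 13.1% of FOXA2 peaks (11.9 to 14.4%) were high-scoring, and the median scores were 24 and 17, so that the FOXA2 median was lower in the dense clusters. The intervals of the dense and the smaller clusters overlapped for both factors. The lower bounds of the dense clusters lay above the values of all peaks outside, but peaks of 1 cluster are not independent.

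Part of these peaks lay in shared sites, where scores of both factors run higher throughout the series. Among shared sites, HNF4A peaks were high-scoring in 29.0% of cases inside the clusters (23.2 to 35.5%), against 16.4% outside (15.0 to 17.8%), with median scores of 31 and 27. FOXA2 peaks of shared sites did not follow this: 20.8% were high-scoring inside the clusters (15.8 to 26.8%), against 19.8% outside, and their median score was 18 inside, against 20 outside. Among single-factor sites, 11.9% of HNF4A peaks in the clusters were high-scoring (9.48 to 14.8%), against 8.20% outside, and 10.7% of FOXA2 peaks (7.34 to 15.3%), against 6.21% outside. Outside takes in lone sites and smaller clusters, whose shared sites were not split by cluster size. Whatever the kind of site, HNF4A peaks were high-scoring in 7.64% of cases in lone sites. The part was 12.3%, 13.3%, 14.7% and 15.7% in clusters of 2, 3, 4 and 5 or more sites. For FOXA2 it was 9.94% in lone sites and then 11.2%, 12.2%, 10.8% and 14.2%. Peak widths were close to those elsewhere, with medians of 437.5 bp inside and 429 bp outside for HNF4A and of 367 and 364 bp for FOXA2.

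**Figure D4:**
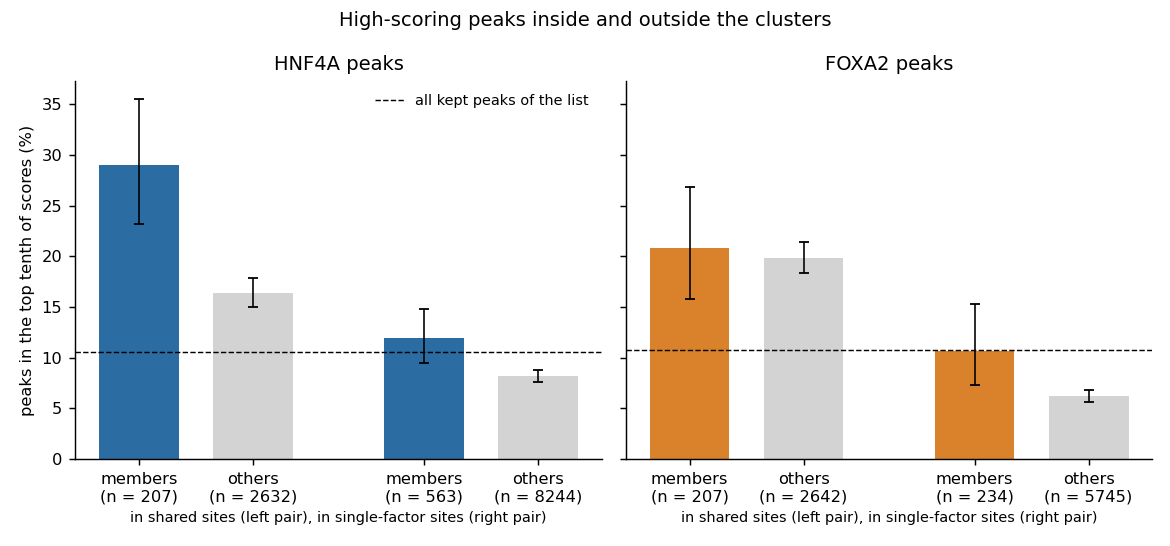
Part of peaks at or above the 90th percentile of score of their list (percent, with 95% Wilson intervals) for HNF4A at the left and FOXA2 at the right, in shared and in single-factor sites, for member clusters and for all other peaks. The other peaks include those of lone sites and of smaller clusters. The dashed line is the value over all kept peaks of the list. HNF4A peaks of shared sites stand at 29.0% in the clusters and 16.4% outside, and FOXA2 peaks of shared sites at 20.8% and 19.8%.

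High-scoring peaks were not found in every cluster. At least 1 high-scoring HNF4A peak was present in 88 of the 169 clusters and at least 1 high-scoring FOXA2 peak in 54. Both occurred in 32 clusters and neither in 59. These counts do not compare the factors, since the clusters held 770 HNF4A and 441 FOXA2 peaks. Over the whole lists 10.6% of HNF4A and 10.7% of FOXA2 peaks were high-scoring. Within clusters with 2 or more peaks of a factor, the highest score was a median of 2.55 times the lowest for HNF4A and 1.92 times for FOXA2. The range reached 8.88 and 9.91 times. High-scoring peaks were as frequent at the ends as inside, at 16.3% and 16.6% for HNF4A and 14.8% and 15.8% for FOXA2.

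The highest peaks of both factors met in the same site in 31 of the 169 clusters, or 18.3% (13.2 to 24.9%). Picking 1 peak of each factor at will in each cluster would place them together in 10.1% of clusters, by formula from the number of shared sites and peaks. The formula treats all peaks alike, although peaks of shared sites scored higher throughout the series. Outside the clusters, 16.4% of HNF4A peaks in shared and 8.20% in single-factor sites were high-scoring, and 19.8% and 6.21% of FOXA2 peaks. No such comparison is given for smaller clusters. The highest HNF4A peak lay in a shared site in 66 clusters (39.1%), where 25.9% follows from the composition. The highest FOXA2 peak did so in 97 clusters (57.4%), where 48.3% follows. Ties for a highest peak occurred in 18 clusters and counted in favour of a shared site. With ties counted against it, the values were 15.4% (10.7 to 21.6%) for the same site, 38.5% for HNF4A and 53.3% for FOXA2, and the interval of the FOXA2 value, 45.7 to 60.6%, then included that from the composition. Across the 207 shared sites, all from the same pair of libraries, HNF4A and FOXA2 scores had a Spearman rho of 0.08, against 0.14 in the 2624 other shared sites, given as a description without a test.

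The cluster with the most sites, on chromosome 5 at 90843248 to 90923884, was also the longest and had the most shared sites. It was 80.6 kb long and held 14 HNF4A and 12 FOXA2 peaks in 18 sites, of which 8 were shared, 6 had HNF4A only and 4 had FOXA2 only. Of the shared sites 7 stood in 2 groups. The first group of 3 lay 16.8 to 33.4 kb from the start, with HNF4A scores of 36, 57 and 80 and FOXA2 scores of 26, 49 and 37. The second group of 4 neighbouring sites lay 69.7 to 76.0 kb from the start, with HNF4A scores of 30, 75, 48 and 29 and FOXA2 scores of 50, 34, 35 and 11. The last shared site ended the cluster, with scores of 21 for HNF4A and 12 for FOXA2. Between the groups stood 4 HNF4A-only sites and 3 neighbouring FOXA2-only sites, whose FOXA2 scores were 34, 11 and 18. This cluster held 5 high-scoring HNF4A and 6 high-scoring FOXA2 peaks, more of each than any other of the 169 clusters.

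The next largest clusters, with 14 and 11 sites, were richer in HNF4A. Chromosome 18 at 85018120 to 85091522 had 14 sites over 73.4 kb, with 12 HNF4A peaks of score 16 to 74 and 4 FOXA2 peaks of score 12 to 23. Its 2 shared sites included the highest HNF4A peak, of score 74, beside the highest FOXA2 peak, of score 23. Chromosome 7 at 20261979 to 20286633 packed 11 sites into 24.7 kb. It held 11 HNF4A peaks and 2 FOXA2 peaks, both in shared sites. The highest HNF4A peak of the 169 clusters, score 142, lay 8.70 kb from its start together with a FOXA2 peak of score 28. The last site of this cluster paired scores of 72 for HNF4A and 30 for FOXA2. Chromosome 3 at 10282831 to 10319304 also had 11 sites, 7 with HNF4A only, 3 with FOXA2 only and 1 shared.

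Clusters of 10 sites lay on chromosomes 10, 8 and 19. Chromosome 10 at 127168326 to 127213601 and chromosome 8 at 109112716 to 109166453 each held 8 HNF4A and 4 FOXA2 peaks with 2 shared sites. Their highest scores were 31 for HNF4A and 16 for FOXA2 on chromosome 10, and 48 and 57 on chromosome 8. On chromosome 8 the 2 shared sites came first, followed by 1 HNF4A-only, 2 FOXA2-only and 5 HNF4A-only sites. Chromosome 19 at 55162178 to 55220067 had no shared site among its 10 and no high-scoring peak of either factor. Its 8 HNF4A peaks scored 17 to 36 and both of its FOXA2 peaks scored 12.

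Chromosome 11 at 83691269 to 83750299 had 9 sites over 59.0 kb and was the only cluster of 9 or more sites in which FOXA2 peaks, 7, exceeded HNF4A peaks, 6. Among the 8 clusters of 8 sites there was 1 more, on chromosome 1 at 90132252 to 90150592, with 6 neighbouring FOXA2-only sites between 2 HNF4A-only sites. The 4 shared sites of the chromosome 11 cluster had HNF4A scores of 35, 37, 29 and 16 and FOXA2 scores of 21, 13, 17 and 17. FOXA2-only sites stood at both ends of that cluster. Chromosome 5 at 66435061 to 66481278 had 9 sites, all with HNF4A, of which 3 were shared, among them the first and the last. Chromosome 5 at 65719498 to 65759501 had 8 sites, 3 of them shared. It held an HNF4A peak of score 139 in the same site as a FOXA2 peak of score 12, and the shared site just before it paired the highest FOXA2 score, 65, with an HNF4A score of 22. The highest peaks of both factors thus lay 2.39 kb apart in neighbouring sites.

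The highest part of shared sites was found on chromosome 15 at 3178961 to 3201305, where 5 of 6 sites over 22.3 kb were shared. HNF4A scores were 56, 40, 38, 44 and 57 in these sites and FOXA2 scores were 13, 18, 26, 60 and 51. The remaining site, second in order, had a FOXA2 peak of score 34 without HNF4A. Every HNF4A peak of this cluster thus lay in a shared site, and none scored under 38. The cluster on chromosome 1 at 191930013 to 191953820 had 4 shared sites of 6, as many as the chromosome 11 cluster of 9 sites. The shortest cluster, with the closest sites, was on chromosome 7 at 107120380 to 107128471, with 5 sites in 8.09 kb, 2 of them shared.

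**Figure D5:**
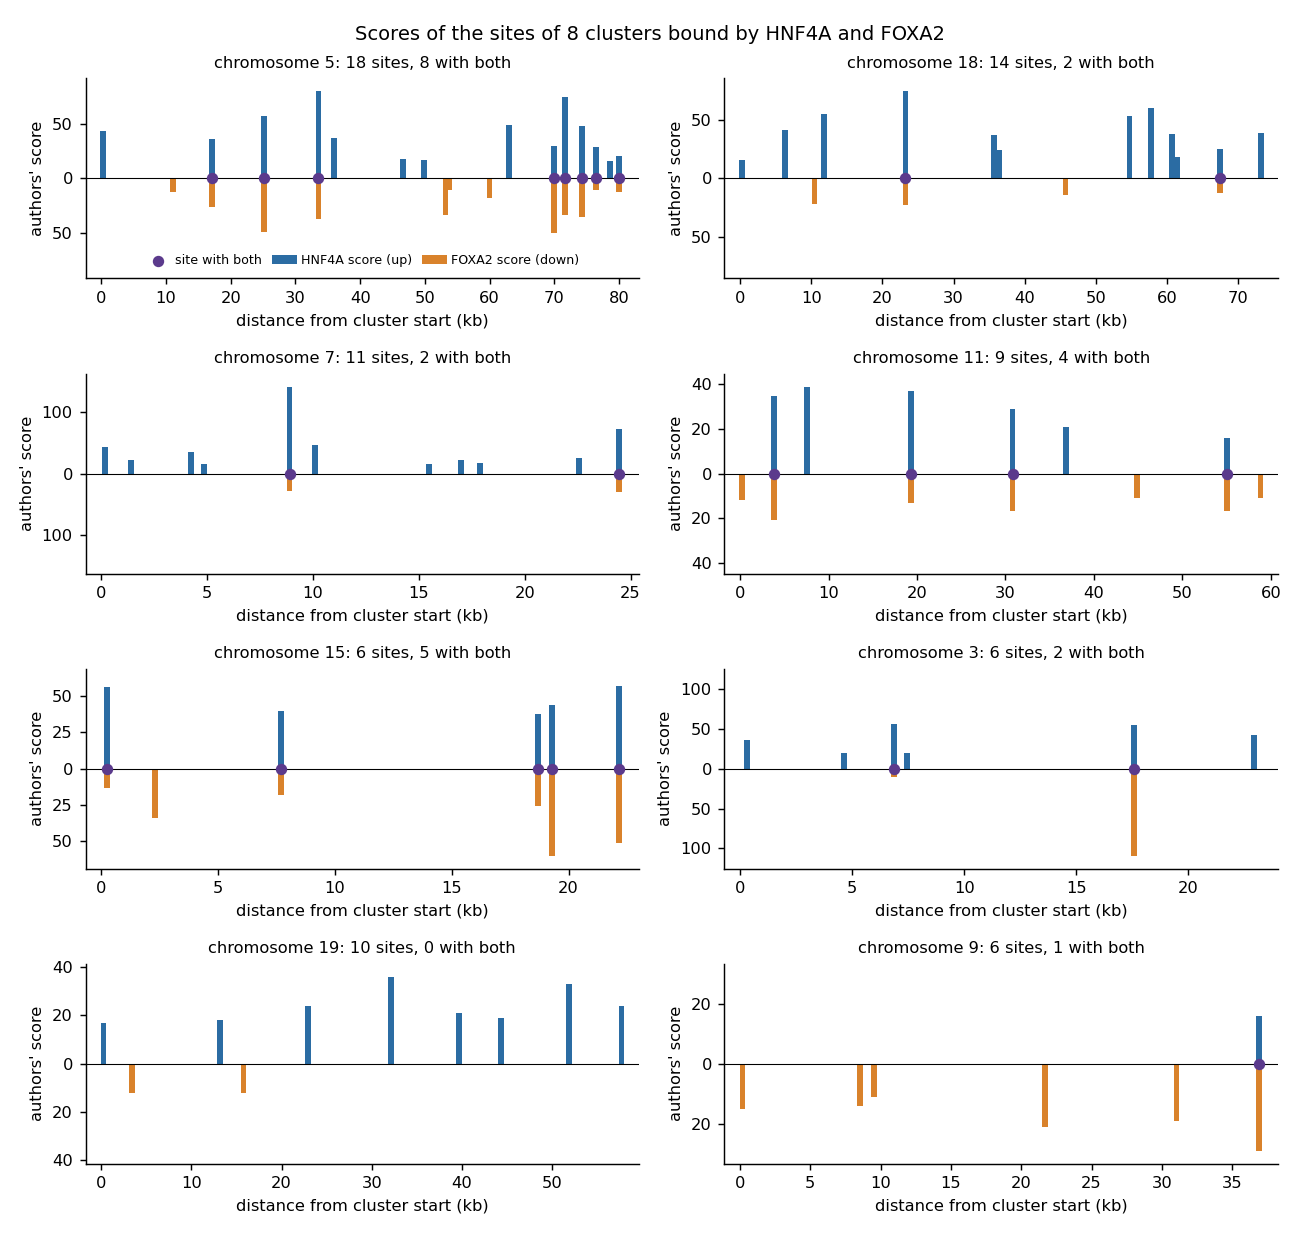
Sites of 8 clusters by distance from the cluster start (kb, horizontal axis) with the authors' HNF4A score upward and FOXA2 score downward; scores of the 2 lists are not on a common scale. Dots mark sites with both factors. The chromosome 5 cluster of 18 sites shows shared sites in 2 groups, the chromosome 15 cluster has 5 shared sites of 6, the chromosome 19 cluster has none, and the chromosome 9 cluster has 1 HNF4A peak, in its last site.

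The highest single peaks of the set lay in clusters of very different make-up. Scores outside the set reached 161 for HNF4A and 165 for FOXA2, above any peak inside it. After the HNF4A peaks of score 142 and 139, the next were 119 on chromosome 11 at 55021915 to 55022247, without FOXA2, 119 on chromosome 15 at 78247481 to 78247856, shared with a FOXA2 peak of score 15, and 102 on chromosome 2 at 147770021 to 147770499, without FOXA2. The highest FOXA2 peak, score 109, was on chromosome 3 at 82824310 to 82824717, where the centre of an HNF4A peak of score 55 lay 33.5 bp from its own. It belonged to a cluster of 6 HNF4A and 2 FOXA2 peaks, 1 of the closest pair of clusters named above. The other cluster of that pair, with 3 HNF4A and 6 FOXA2 peaks, had the opposite balance, and its 3 HNF4A peaks were all shared, with a highest score of 77. The next FOXA2 peaks scored 87 on chromosome 4, 82 and 80 on chromosome 9 and 79 on chromosome 3. Of these, the peak of score 82 had no HNF4A partner, and the others met HNF4A peaks of score 20, 30 and 43.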

How the data were processed

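Each of the 3 libraries came with a list of regions, each with a score that the authors deposited. Coordinates are on mm9, per the submitters' processing notes. The aligner, the peak caller, the threshold and the meaning of the score were not given in the sources used here. HNF4A had 11703 listed peaks and FOXA2 had 9338. Mitochondrial peaks (3 of HNF4A) and peaks within 10 kb of any of the 1263 input regions (54 of HNF4A, 510 of FOXA2) were left out. Peaks of both lists with 1 bp or more in common were merged into sites. Clusters were then formed as stated above, with Python 3.11.15, pandas 2.3.3, numpy 2.4.6 and scipy 1.17.1, and the steps were tested on simulated lists with planted clusters. Scores were compared within a list only. The clusters named are the 10 with the most sites, the 3 with the most shared sites, the 3 highest and 3 lowest in HNF4A part, the longest, the shortest, the one with the closest sites, and those with the 5 highest peaks of each factor. Ties went to more peaks for the number of sites, to more peaks and then more sites for the HNF4A part, and to more sites for the shared sites. The closest pair of clusters and the clusters tied with a named one (at 8 sites, 4 shared sites and 6 HNF4A peaks to 1) were added after their values were seen. The clusters and rules were chosen with earlier results of these data known. Alternatives changed the joining distance, the least number of sites, the input filter, the overlap and the scores kept.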

Additional observations from a re-analysis of the deposited data

How the results depend on the processing

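The number of clusters and their length follow the rule. Joining sites at 5 kb gave 26 clusters with a median length of 12.51 kb, and at 25 kb 453 clusters with 46.7 kb. Asking for 4 or more sites gave 389 clusters (median 18.97 kb), asking for 8 or more gave 17 (39.2 kb), and keeping only scores at or above each list's median gave 33 clusters. Neighbours of the same kind made up 38.9% of pairs at 4 or more sites (38.6% from the composition), 47.7% at 8 or more (45.2%) and 37.0% with the upper scores alone (39.4%). The HNF4A part of peaks was 60.8% when peaks beside input regions were kept, against 55.3% outside the clusters. The shared part was 14.6% when peak centres had to lie within 100 bp, against 11.6% outside. High-scoring FOXA2 peaks were 20.6% when sites were joined at 5 kb (14 of 68, 12.7 to 31.6%), against 10.7% outside. The changes in number, length and shared part follow from how these settings build the clusters and define sharing, and the cause of the others was not tested. The part of high-scoring HNF4A peaks and the part of clusters with both highest peaks in 1 site stayed within their intervals under all 11 alternatives common to both, and the second also when ties were counted against it (15.4%, chosen after seeing the data). Without the largest cluster, an alternative chosen after seeing the data, 16.1% of HNF4A peaks and 14.5% of FOXA2 peaks were high-scoring. Library depth is unknown and there is no second library per antibody, so the spread between samples could not be measured.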
